A study of Mus musculus with 26 samples.

Results

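The 38 genes described here serve homologous recombination and the Fanconi anemia pathway, and were chosen by symbol out of 55391 gene rows in the deposited count table. All 38 were found, and all 38 passed the filter on low counts that left 14264 genes for testing. Homologous recombination copies an intact sister DNA molecule to mend a double-strand break, and the Fanconi anemia pathway unhooks DNA strands that are covalently crosslinked and hands the break that results to the same machinery. Breaks are trimmed by nucleases, the exposed strand invades the intact copy, and checkpoint kinases hold the cell cycle meanwhile. Many of these genes are transcribed mainly in cycling cells, in S and G2 phase.

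The RNA came from 3 murine lung cancer lines, EA1, EA2 and EA3, which carry an Eml4-Alk fusion made in the lungs of C57BL/6 mice with an adenovirus that delivers Cas9 and guides to both genes. The mouse behind EA1 was Trp53 wild-type, whereas EA2 and EA3 came from Trp53-null mice and EA2 was obtained from another institution, so line, Trp53 status and origin cannot be told apart. Each group is 1 cell line. Cells were grown with 100 nM alectinib, an inhibitor of the ALK kinase, or with 0.1% DMSO, the solvent, and sequenced on days 1, 2, 3 and 5, with 1 library for each combination. The 4 days therefore served as the replicates of a line and treatment (n = 4), and the p-values of the alectinib tests, which compare treatments within a day, measure how far that difference varied between days. In all, 24 libraries of 5780062 to 11732401 counts (median 9252878) entered the tests. Levels are CPM, counts scaled to a common library size, on library sizes adjusted by TMM, a normalization on the bulk of the genes. The lowest count of any of the 38 genes in a library was 7, above the 3 counts taken as the limit of detection.

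The 9 lung epithelial markers, Krt8 and Krt18 among them, summed in DMSO to 4750.6 to 9117.6 CPM in EA1, 1821.2 to 2687.2 in EA2 and 4819.5 to 6921.5 in EA3. The alveolar gene Sftpc had at most 3 counts in every library, the lung lineage factor Nkx2-1 had at most 3 in each library of every group but EA3 with alectinib, and Epcam was at 0 in EA2 with alectinib. Of the 9, 6 were tested: Krt8 and Krt18 were lower for the mean effect, at -1.22 and -1.50, and Cdh1 was higher, at 0.81. With alectinib the epithelial sums were 3177.1 to 5350.5 in EA1, 560.7 to 1176.3 in EA2 and 3053.6 to 7158.8 in EA3. Of 8 fibroblast markers, 6 were tested and 5 were higher for the mean effect, with summed levels of 9.55 to 45.3 CPM in DMSO and 125.4 to 472.5 CPM with alectinib in EA1. In EA2 the fibroblast sums were 57.1 to 71.3 and 119.1 to 241.2 CPM, and in EA3 they were 10.3 to 20.5 and 84.9 to 271.2 CPM, with Lum at 0 in all DMSO libraries and Thy1 at most 3 counts in each of the 24 libraries. The 8 leukocyte markers summed to at most 95.9 CPM and the 5 endothelial markers to at most 10 CPM. The part of these marker shifts in the repair gene results was not tested. In bulk RNA, fewer cells of a type and less RNA per cell cannot be told apart.

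With alectinib, the RNA of some of the repair genes was lower in each of the 3 lines. A gene is said to fall or rise where its adjusted p (edgeR's quasi-likelihood test on log2 fold changes, Benjamini-Hochberg over all genes tested) was under 0.05. In EA1, 10 of the 38 fell and 0 rose, against 15.8% of all genes tested that fell and 18% that rose (26.3% of the 38 fell). In EA2, 9 fell and 1, Fancc, rose, against 11.3% and 13% of all genes, so that 23.7% of the 38 fell. In EA3, 8 fell and 0 rose, against 15.8% and 16.5% of all genes, which is 21.1% of the 38. With all days, neither edgeR nor DESeq2 had any of the 38 higher in EA1 or EA3, where 0 were also higher at an unadjusted p under 0.05, and without day 1 Slx4 was higher in EA3. With library size alone, 4 of the 38 were lower in EA3, and with each line fitted alone 5 were, where 33.1% and 23.8% of all genes passed in either direction (32.3% in the reported fit). With no filter on low counts, 15 were lower in EA2, where 3682 of 33394 genes passed (11%). In the reported fit 3464 of 14264 genes passed there (24.3%), so the 2 shares are of unlike totals. Averaged over the lines, 20 fell and 2 (Fancc and Fancg) rose, against 24.6% and 25.4% of all genes, with 52.6% of the 38 lower.

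The median log2 fold change of the 38 genes was -0.54 for EA1, -0.62 for EA2 and -0.29 for EA3, where the medians of all genes were 0.03, -0.00 and 0.04. By sign alone, 33, 32 and 29 of the 38 lay below 0. The 4 genes past the threshold in all 3 lines were Bard1, Blm, Mre11a and Rbbp8. A further 4, Rad51b, Fancf, Fancd2 and Topbp1, passed in 2 lines, 8 passed in 1 line and 22 in none. Of all genes tested, 10.1% passed in 3 lines, 17.1% in 2, 25.9% in 1 and 47% in none, in either direction, against 10.5%, 10.5%, 21.1% and 57.9% of the 38. Of the 4 genes past it in 3 lines, and over the alternatives other than left-out days, Bard1 passed in each line every time. With each line fitted alone, Rbbp8 missed the threshold in EA2 and Blm and Mre11a missed it in EA3. Under library size alone Blm and Rbbp8 missed it in EA3, without the block Blm missed it in EA2 and EA3, with at least 10 counts in every library Blm missed it in EA3, and with no filter on low counts Rbbp8 missed it in EA2. Without the EA2 day 3 libraries, Blm, Mre11a and Rbbp8 missed it in EA2. Of these 22, 16 also missed the threshold for the mean effect. The number of calls changed when single days were left out, in fits of fewer libraries, and the medians changed less evenly. Without day 1, 3 members were lower in EA1, 3 in EA3 and 11 for the mean, with medians of -0.30, 0.01 and -0.23 (-0.48 for the mean with all days). Without day 3, 1 was lower in EA2, and without only the EA2 day 3 libraries, 2 were, each with an EA2 median of -0.47. Without day 2 the counts were 3 in EA2, 3 in EA3 and 13 for the mean, with medians of -0.62, -0.25 and -0.46. Without day 5 the EA3 count was 4, with a median of -0.45. In EA2, 5 genes were lower in a fit without the block by line and day. The share of all genes past the threshold in either direction moved as well, from 33.8% to 26% in EA1, from 32.3% to 26.1% in EA3 and from 50% to 42.9% for the mean without day 1. In EA2, where it was 24.3%, it was 14.9% without day 3, 14% without the EA2 day 3 libraries, 17.2% without day 2 and 20% without the block. It was 19.6% in EA3 and 41.2% for the mean without day 2, and 22.2% in EA3 without day 5.

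**Figure D1:**
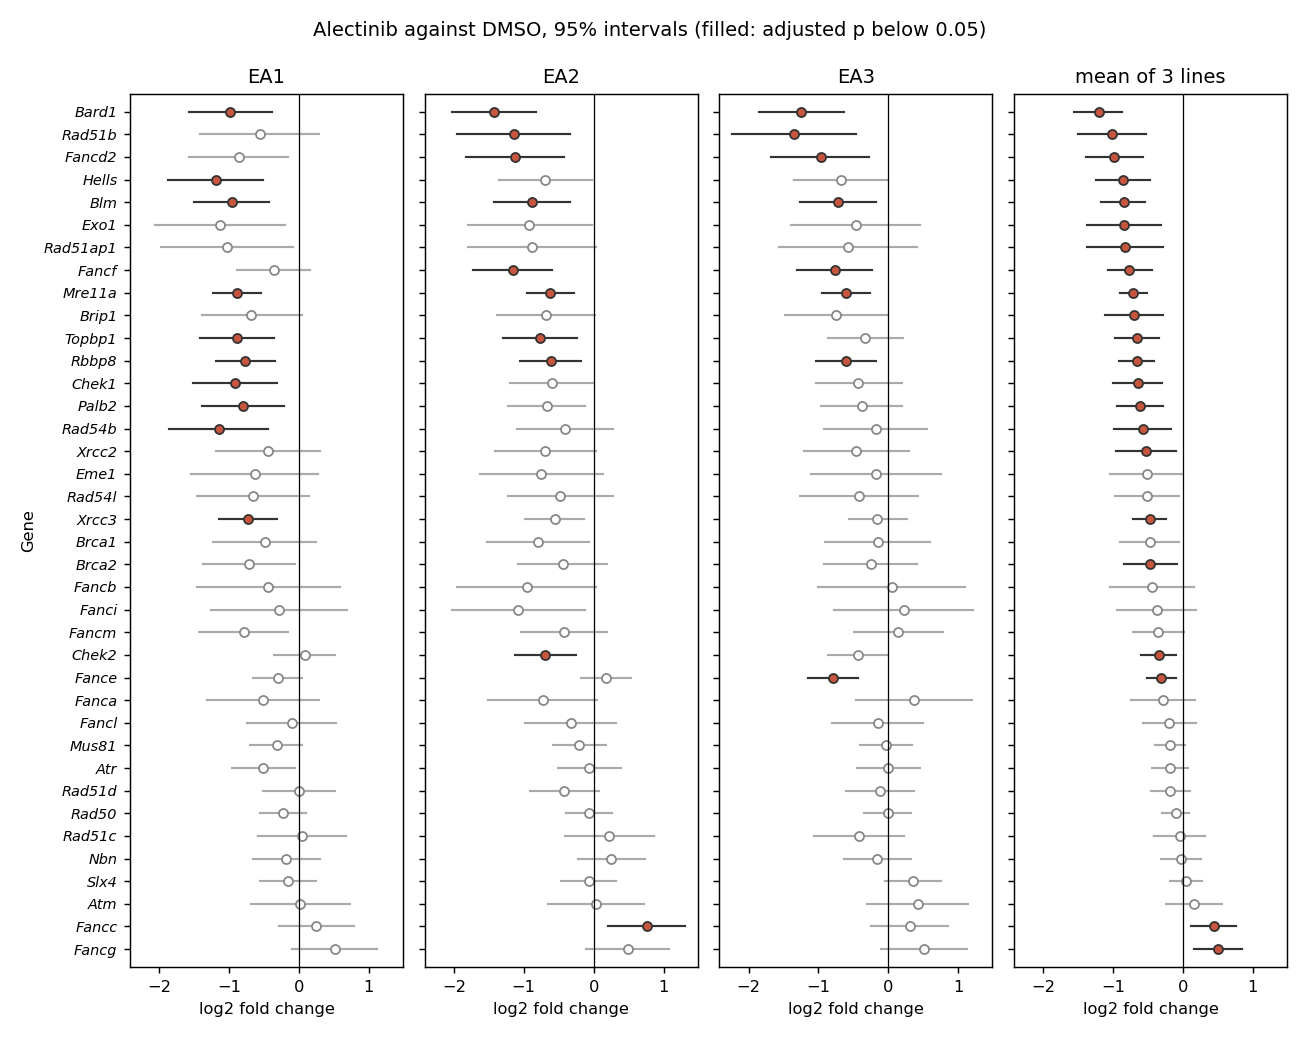
Log2 fold change of alectinib against DMSO for the 38 repair genes (vertical axis, ordered by the mean effect) in EA1, EA2, EA3 and for the mean of the lines, with 95% confidence intervals as bars and filled points where the adjusted p was below 0.05. For the mean, Bard1 stands lowest at -1.21, and Fancc and Fancg are the filled points above 0, at 0.44 and 0.50. In EA2, Fancc is the filled point above 0, at 0.76.

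The plot of fitted alectinib effects shows that most of the 38 points lay left of 0. It also shows how wide the single-line intervals were: for Fanci in EA1 the interval ran from -1.26 to 0.69.

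E2F factors drive transcription of many S phase genes and NF-Y binds the CCAAT box, a short word found upstream of many cell cycle genes. RefSeq promoter windows of GRCm38.p6, from 250 bases before to 50 bases after the start, were held for 30 of the 38 genes. The E2F words searched on both strands were TTTCCCGC, TTTGGCGC, TTTCGCGC and TTTGCCGC. They occurred in 7 of the 30 windows (23.3%), against 704 of 27025 windows of all genes (2.6%). The word CCAAT on either strand, which does not overlap the E2F words, occurred in 18 of 30 (60%) against 11096 of 27025 (41.1%). Shown here are 30 bases around the E2F word in the 7 genes with one, and around 1 of the 2 CCAAT words in each of Blm and Mre11a, which fell in all 3 lines and held no E2F word. Capitals mark the word, and each stretch is written 5' to 3' on the gene's strand.
Brca2, chr5:150522442-150522471, plus strand: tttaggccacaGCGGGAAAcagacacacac
Bard1, chr1:71103163-71103192, minus strand: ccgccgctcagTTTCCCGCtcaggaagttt
Rad51c, chr11:87404477-87404506, minus strand: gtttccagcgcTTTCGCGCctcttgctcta
Fancg, chr4:43010335-43010364, minus strand: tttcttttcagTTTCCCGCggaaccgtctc
Hells, chr19:38930917-38930946, plus strand: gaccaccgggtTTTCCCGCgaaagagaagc
Chek2, chr5:110839820-110839849, plus strand: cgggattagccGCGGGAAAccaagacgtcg
Topbp1, chr9:103305187-103305216, plus strand: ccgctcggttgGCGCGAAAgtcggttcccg
Blm, chr7:80535167-80535196, minus strand: agaggccacggtATTGGttagatccttcag
Mre11a, chr9:14784569-14784598, plus strand: tcgctgctcaggATTGGctcctgtgaggtg
The stretches of Rad51c, Fancg, Hells and Topbp1 overlap exons of the genes themselves in the GENCODE annotation, that of Mre11a overlaps an exon of Ankrd49, and the others overlap none. Of the 7 genes with an E2F word, Brca2, Bard1, Hells, Chek2 and Topbp1 were lower with alectinib for the mean effect, Fancg was higher and Rad51c had a mean effect of -0.05 (SE 0.17, adjusted p = 0.828). A word in a window is a match of letters and was not tested as a binding site. Rad54b, Xrcc2, Nbn, Exo1, Fancd2, Rbbp8, Rad50 and Rad51d had no window.

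Of the 12 genes for homology search and strand exchange, 8 fell for the mean effect, against 24.6% of all genes, with a median log2 fold change of -0.52. The lowest value in this group and of all 38 genes was that of Bard1 (chr1:71027498-71103146, minus strand, mm10), which encodes the partner of Brca1 in a ubiquitin ligase. In EA1, Bard1 was at 61.7, 39.4, 25.1 and 24.6 CPM in DMSO on days 1, 2, 3 and 5 and at 14.1, 22.5, 19.4 and 15.8 CPM with alectinib. The Bard1 values in EA2 were 39.6, 36.7, 47.2 and 44.3 CPM in DMSO and 20.3, 13.3, 9.75 and 21.7 CPM with alectinib. For EA3, Bard1 stood at 45.9, 21.9, 15.9 and 13.7 CPM in DMSO and 13.4, 10.6, 7.16 and 6.97 CPM with alectinib. Every alectinib library lay below every DMSO library of the same line, in each of the 3 lines, and Bard1 was lower on 12 of 12 line-days. All 4 alectinib values lay below all 4 DMSO values for 6 of the 38 genes in EA1 (15.8%), 11 in EA2 (28.9%) and 5 in EA3 (13.2%), against 13.8%, 12.6% and 11.4% of all genes tested. No gene of the 38 had all 4 alectinib values above all 4 DMSO values in any line, against 17.3% of all genes in EA1, 14.3% in EA2 and 12.2% in EA3. Bard1 had a fitted log2 fold change of -0.98 (SE 0.28, adjusted p = 0.0155) in EA1, -1.42 (SE 0.28, adjusted p = 0.00225) in EA2 and -1.25 (SE 0.28, adjusted p = 0.00463) in EA3, with a mean over the lines of -1.21 (SE 0.16, adjusted p = 3.35e-05). For Bard1, leaving out 1 day took the adjusted p above 0.05 in EA1 without day 1 (0.0907) or day 2 (0.0505). The Bard1 calls in EA2, in EA3 and for the mean effect passed with any single day left out.

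Brca1 itself (chr11:101488764-101551955, minus strand) passed the threshold in no line. In EA1, Brca1 was at 80.9, 34, 23.7 and 21.8 CPM in DMSO on days 1, 2, 3 and 5 and at 24.7, 34.5, 21.7 and 19.6 CPM with alectinib. The Brca1 values in EA2 were 80.1, 81.3, 71.4 and 70.1 CPM in DMSO and 58.1, 56.6, 18 and 57.1 CPM with alectinib. For EA3, Brca1 stood at 79.1, 25, 22.7 and 13.2 CPM in DMSO and 33.4, 30.2, 25.3 and 15.6 CPM with alectinib. The DMSO value of day 1 was the highest in EA1 and EA3, where the groups overlapped, whereas all EA2 alectinib values lay below the EA2 DMSO values. On days 2, 3 and 5, the EA3 alectinib libraries were the higher. Brca1 had a fitted log2 fold change of -0.49 (SE 0.34, adjusted p = 0.284) in EA1, -0.80 (SE 0.34, adjusted p = 0.106) in EA2 and -0.15 (SE 0.34, adjusted p = 0.765) in EA3, with a mean over the lines of -0.48 (SE 0.20, adjusted p = 0.0573).

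Brca2, which acts on resected DNA, was lower for the mean effect and in no line alone. In EA1, Brca2 was at 52.7, 39.6, 21.7 and 28.1 CPM in DMSO on days 1, 2, 3 and 5 and at 15, 27.2, 23.4 and 18 CPM with alectinib. The Brca2 values in EA2 were 52.4, 46.1, 56.1 and 57.9 CPM in DMSO and 31.5, 37.9, 38.2 and 50.6 CPM with alectinib. For EA3, Brca2 stood at 40, 14.4, 23.4 and 12.8 CPM in DMSO and 16.3, 17.7, 16.1 and 19.4 CPM with alectinib. Its values overlapped between treatments in every line, and in EA3 the alectinib values stayed within a narrow band inside the DMSO range. Brca2 had a fitted log2 fold change of -0.72 (SE 0.31, adjusted p = 0.0841) in EA1, -0.44 (SE 0.29, adjusted p = 0.308) in EA2 and -0.25 (SE 0.31, adjusted p = 0.567) in EA3, with a mean over the lines of -0.47 (SE 0.18, adjusted p = 0.0379). For Brca2, leaving out 1 day took the adjusted p above 0.05 for the mean effect without day 1 (0.341), day 2 (0.056) or day 3 (0.0674). Palb2 encodes the bridge between Brca1 and Brca2. In EA1, Palb2 was at 12.7, 8.45, 4.04 and 5.09 CPM in DMSO on days 1, 2, 3 and 5 and at 4.42, 5.34, 3.35 and 3.15 CPM with alectinib. The Palb2 values in EA2 were 14.3, 14, 12 and 15.4 CPM in DMSO and 9.34, 8.83, 5.87 and 11.7 CPM with alectinib. For EA3, Palb2 stood at 11.1, 6.4, 4.12 and 3.67 CPM in DMSO and 5.36, 3.95, 4.65 and 4.08 CPM with alectinib. The groups were apart in EA2 and overlapped in EA1 and EA3. Palb2 had a fitted log2 fold change of -0.80 (SE 0.27, adjusted p = 0.0353) in EA1, -0.67 (SE 0.26, adjusted p = 0.0742) in EA2 and -0.38 (SE 0.27, adjusted p = 0.306) in EA3, with a mean over the lines of -0.62 (SE 0.15, adjusted p = 0.00427). For Palb2, leaving out 1 day took the adjusted p above 0.05 in EA1 without day 1 (0.228), day 2 (0.0926) or day 5 (0.0821) and for the mean effect without day 1 (0.0603).

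Rad51b belongs to a family of mediator genes, with Rad51c, Rad51d, Xrcc2 and Xrcc3, that assist strand exchange. In EA1, Rad51b was at 7.29, 10.4, 5.39 and 25.7 CPM in DMSO on days 1, 2, 3 and 5 and at 4.62, 7.08, 9.33 and 7.87 CPM with alectinib. The Rad51b values in EA2 were 32.2, 39.3, 38.9 and 36.2 CPM in DMSO and 21.6, 20.3, 18.7 and 8.89 CPM with alectinib. For EA3, Rad51b stood at 3.1, 13.2, 6.64 and 14.8 CPM in DMSO and 2.03, 2.96, 5.12 and 3.22 CPM with alectinib. EA2 stood above the other lines in DMSO, and in EA2 alone the treatments did not overlap, while the day 5 DMSO values of EA1 and EA3 were the highest of their groups. Rad51b had a fitted log2 fold change of -0.56 (SE 0.40, adjusted p = 0.288) in EA1, -1.14 (SE 0.37, adjusted p = 0.0397) in EA2 and -1.35 (SE 0.42, adjusted p = 0.0238) in EA3, with a mean over the lines of -1.02 (SE 0.23, adjusted p = 0.00213). For Rad51b, leaving out 1 day took the adjusted p above 0.05 in EA2 without day 1 (0.069), day 2 (0.104), day 3 (0.0584) or day 5 (0.111) and in EA3 without day 2 (0.165) or day 5 (0.084). The Rad51b call for the mean effect passed with any single day left out. Rad51ap1, which stimulates strand invasion, was lower with alectinib for the mean effect and in no line alone. In EA1, Rad51ap1 was at 26.1, 14.8, 11.5 and 8.28 CPM in DMSO on days 1, 2, 3 and 5 and at 5.77, 8.82, 5.78 and 7.12 CPM with alectinib. The Rad51ap1 values in EA2 were 23.3, 25, 17.5 and 21.8 CPM in DMSO and 14.9, 15.8, 4.21 and 17.7 CPM with alectinib. For EA3, Rad51ap1 stood at 29.2, 15.3, 4.25 and 3.17 CPM in DMSO and 8.69, 5.38, 7.63 and 4.4 CPM with alectinib. The EA1 and EA2 groups overlapped by 1 library at each end, and in EA3 the DMSO values of days 3 and 5 lay below all alectinib values. Rad51ap1 had a fitted log2 fold change of -1.03 (SE 0.44, adjusted p = 0.0831) in EA1, -0.88 (SE 0.43, adjusted p = 0.156) in EA2 and -0.58 (SE 0.46, adjusted p = 0.362) in EA3, with a mean over the lines of -0.83 (SE 0.26, adjusted p = 0.0149). For Rad51ap1, leaving out 1 day took the adjusted p above 0.05 for the mean effect without day 1 (0.108) or day 2 (0.0714).

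Rad54l and Rad54b encode DNA translocases that assist strand exchange. In EA1, Rad54l was at 25.8, 16.2, 6.29 and 7.77 CPM in DMSO on days 1, 2, 3 and 5 and at 8.56, 12.2, 5.27 and 6.21 CPM with alectinib. The Rad54l values in EA2 were 42.9, 43.4, 27.2 and 38.3 CPM in DMSO and 27.6, 32, 14.2 and 40.4 CPM with alectinib. For EA3, Rad54l stood at 20.8, 15, 4.78 and 2.17 CPM in DMSO and 7.49, 5.82, 8.09 and 4.08 CPM with alectinib. Treatments overlapped in all lines, and on each day the DMSO level was higher in EA2 than in the other lines. Rad54l had a fitted log2 fold change of -0.66 (SE 0.37, adjusted p = 0.184) in EA1, -0.48 (SE 0.35, adjusted p = 0.353) in EA2 and -0.42 (SE 0.40, adjusted p = 0.445) in EA3, with a mean over the lines of -0.52 (SE 0.22, adjusted p = 0.059). Rad54b shares 35.8% of its exon bases with Fsbp on the same strand, so its counts may hold reads of that gene. In EA1, Rad54b was at 19.7, 14.8, 7.53 and 12.9 CPM in DMSO on days 1, 2, 3 and 5 and at 4.23, 8.57, 5.17 and 6.13 CPM with alectinib. The Rad54b values in EA2 were 20.4, 16.9, 19 and 21 CPM in DMSO and 14.3, 17.3, 10.3 and 17.5 CPM with alectinib. For EA3, Rad54b stood at 14.7, 13.3, 4.38 and 3.17 CPM in DMSO and 6.57, 8.34, 7.26 and 4.83 CPM with alectinib. The EA1 alectinib values lay at or under the lower end of the DMSO range, with overlap of 1 library, and the EA3 alectinib values lay inside the DMSO range. Rad54b had a fitted log2 fold change of -1.15 (SE 0.33, adjusted p = 0.0171) in EA1, -0.41 (SE 0.32, adjusted p = 0.383) in EA2 and -0.18 (SE 0.34, adjusted p = 0.713) in EA3, with a mean over the lines of -0.58 (SE 0.19, adjusted p = 0.0208). For Rad54b, leaving out 1 day took the adjusted p above 0.05 in EA1 without day 1 (0.0896) or day 5 (0.0542) and for the mean effect without day 1 (0.191) or day 2 (0.0588). The other genes of the Rad51b family were mixed. Xrcc3 was -0.73 (SE 0.19, adjusted p = 0.0111) in EA1 and -0.48 (SE 0.11, adjusted p = 0.00264) for the mean, and Xrcc2 was -0.53 (SE 0.20, adjusted p = 0.0402) for the mean. For Xrcc3, leaving out 1 day took the adjusted p above 0.05 in EA1 without day 1 (0.0507) or day 2 (0.0571). The Xrcc3 call for the mean effect passed with any single day left out. For Xrcc2, leaving out 1 day took the adjusted p above 0.05 for the mean effect without day 1 (0.391), day 2 (0.0753) or day 3 (0.116). Rad51c and Rad51d passed in no line, with mean effects of -0.05 and -0.18.

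Of the 8 genes of the Fanconi core complex, the ubiquitin ligase assembly that Fancm brings to stalled forks, 2 fell and 2 rose for the mean effect, close to the shares of all genes that fell (24.6%) and rose (25.4%), with a median of -0.30. Fancf, an adaptor of the complex, was lower on all 12 line-days. In EA1, Fancf was at 12.2, 11.2, 9.1 and 9.17 CPM in DMSO on days 1, 2, 3 and 5 and at 8.46, 8.07, 6.69 and 9.11 CPM with alectinib. The Fancf values in EA2 were 4.59, 5.11, 5.7 and 4.78 CPM in DMSO and 3.58, 2.25, 1.77 and 1.67 CPM with alectinib. For EA3, Fancf stood at 8.48, 9.42, 4.78 and 5.34 CPM in DMSO and 4.07, 4.94, 3.44 and 3.54 CPM with alectinib. The treatments did not overlap in EA2, whereas in EA1 and EA3 the groups met at their edges. Fancf had a fitted log2 fold change of -0.36 (SE 0.24, adjusted p = 0.26) in EA1, -1.16 (SE 0.26, adjusted p = 0.00572) in EA2 and -0.77 (SE 0.25, adjusted p = 0.031) in EA3, with a mean over the lines of -0.77 (SE 0.15, adjusted p = 0.000634). For Fancf, leaving out 1 day took the adjusted p above 0.05 in EA2 without day 3 (0.0581) and in EA3 without day 1 (0.127), day 2 (0.151), day 3 (0.0562) or day 5 (0.0777). The Fancf call for the mean effect passed with any single day left out. An exon of Gas2 on the other strand covers 15% of Fancf exon bases.

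Fanca and Fancb, which scaffold the complex, showed large swings over days. In EA1, Fanca was at 77.8, 34.1, 15.5 and 13.8 CPM in DMSO on days 1, 2, 3 and 5 and at 23, 26.3, 13.7 and 16.8 CPM with alectinib. The Fanca values in EA2 were 60.4, 44.5, 28.1 and 36.9 CPM in DMSO and 31.1, 23, 14.1 and 36.2 CPM with alectinib. For EA3, Fanca stood at 51.4, 20.6, 9.83 and 3.67 CPM in DMSO and 29.6, 19.3, 19.8 and 12.3 CPM with alectinib. The Fanca DMSO level dropped from day 1 to day 5 in EA1 and EA3 and the alectinib level was the lower on day 1 in all lines, yet the higher on days 3 and 5 in EA3. Fanca had a fitted log2 fold change of -0.51 (SE 0.37, adjusted p = 0.301) in EA1, -0.73 (SE 0.36, adjusted p = 0.166) in EA2 and 0.37 (SE 0.38, adjusted p = 0.489) in EA3, with a mean over the lines of -0.29 (SE 0.22, adjusted p = 0.284). In EA1, Fancb was at 18.6, 7.65, 5.17 and 4.46 CPM in DMSO on days 1, 2, 3 and 5 and at 5.29, 7.83, 5.27 and 4.56 CPM with alectinib. The Fancb values in EA2 were 25.5, 29.5, 18.8 and 13.8 CPM in DMSO and 10.9, 13.3, 4.99 and 18.7 CPM with alectinib. For EA3, Fancb stood at 15, 8.94, 2.79 and 1.17 CPM in DMSO and 6.94, 5.38, 5.77 and 3.75 CPM with alectinib. Here too alectinib gave the lower value on day 1 in every line and the higher on days 3 and 5 in EA3. The Fancb DMSO value of day 5 in EA3 rested on 7 counts. Fancb had a fitted log2 fold change of -0.44 (SE 0.48, adjusted p = 0.499) in EA1, -0.96 (SE 0.46, adjusted p = 0.157) in EA2 and 0.05 (SE 0.49, adjusted p = 0.953) in EA3, with a mean over the lines of -0.45 (SE 0.28, adjusted p = 0.197).

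Fancc and Fancg were the 2 genes that rose for the mean effect. Fancc was 0.44 (SE 0.15, adjusted p = 0.0229) for the mean and 0.76 (SE 0.26, adjusted p = 0.0434) in EA2, and it was lower with alectinib on 1 of 12 line-days. Its EA2 mean was 6.67 ± 2.68 CPM in DMSO and 10.8 ± 1.83 CPM with alectinib (SD, n = 4). For Fancc, leaving out 1 day took the adjusted p above 0.05 in EA2 without day 1 (0.124), day 2 (0.0662), day 3 (0.0739) or day 5 (0.203) and for the mean effect without day 3 (0.136) or day 5 (0.0886). Fancg, another scaffold subunit, was 0.50 (SE 0.16, adjusted p = 0.0198) for the mean and passed in no single line. For Fancg, leaving out 1 day took the adjusted p above 0.05 for the mean effect without day 2 (0.0622), day 3 (0.142) or day 5 (0.0644). Neither gene passed for the mean without day 3 or without day 5. An exon of Gm16133 on the other strand covers 18.6% of Fancc exon bases. Fance, which contacts Fancd2, was -0.79 (SE 0.17, adjusted p = 0.00296) in EA3, where it averaged 39.5 ± 9.23 CPM in DMSO and 22.5 ± 2.03 CPM with alectinib, with no overlap. For the mean it was -0.31 (SE 0.10, adjusted p = 0.0165). For Fance, leaving out 1 day took the adjusted p above 0.05 for the mean effect without day 1 (0.0816), day 2 (0.0744) or day 5 (0.12). The Fance call in EA3 passed with any single day left out. Fancl, the ligase subunit, and Fancm passed in no line, at -0.20 and -0.36 for the mean.

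Fancd2 and Fanci form the clamp that the core complex ubiquitinates at a crosslink. In EA1, Fancd2 was at 36, 23.5, 12.2 and 12.1 CPM in DMSO on days 1, 2, 3 and 5 and at 7.98, 12.7, 10.6 and 10.5 CPM with alectinib. The Fancd2 values in EA2 were 39.6, 33.6, 29.3 and 31.7 CPM in DMSO and 14.9, 18.5, 7.87 and 24.3 CPM with alectinib. For EA3, Fancd2 stood at 43.1, 23.5, 15.7 and 7.84 CPM in DMSO and 14.7, 10.1, 9.95 and 6.11 CPM with alectinib. Fancd2 was lower with alectinib on each of the 12 line-days, and the groups were apart in EA2 and overlapped in EA1 and EA3. Fancd2 had a fitted log2 fold change of -0.86 (SE 0.33, adjusted p = 0.0578) in EA1, -1.13 (SE 0.32, adjusted p = 0.0206) in EA2 and -0.97 (SE 0.33, adjusted p = 0.0356) in EA3, with a mean over the lines of -0.99 (SE 0.19, adjusted p = 0.000651). For Fancd2, leaving out 1 day took the adjusted p above 0.05 in EA2 without day 2 (0.0701) or day 3 (0.128) and in EA3 without day 1 (0.1), day 2 (0.162) or day 3 (0.0549). The Fancd2 call for the mean effect passed with any single day left out. Fanci passed in no line. In EA1, Fanci was at 22.2, 12.3, 6.07 and 7 CPM in DMSO on days 1, 2, 3 and 5 and at 5.77, 9.56, 8.92 and 10.4 CPM with alectinib. The Fanci values in EA2 were 21.1, 19.7, 10.8 and 16 CPM in DMSO and 8.45, 9.35, 3.44 and 12.7 CPM with alectinib. For EA3, Fanci stood at 23.1, 7.61, 4.65 and 1.83 CPM in DMSO and 10.1, 7.68, 8 and 5.9 CPM with alectinib. In EA1 and EA3 the alectinib value was the lower on day 1 and the higher on days 3 and 5, and in EA2 it was the lower on every day. Fanci had a fitted log2 fold change of -0.28 (SE 0.45, adjusted p = 0.654) in EA1, -1.08 (SE 0.44, adjusted p = 0.0924) in EA2 and 0.22 (SE 0.46, adjusted p = 0.755) in EA3, with a mean over the lines of -0.38 (SE 0.26, adjusted p = 0.243). Polg on the other strand covers 16% of Fanci exon bases.

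Of the helicases and genes of end resection, 6 of 8 were lower for the mean effect, against 24.6% of all genes, with a median of -0.70. Mre11a (chr9:14784654-14837123, plus strand) encodes the nuclease of the complex that opens broken ends. In EA1, Mre11a was at 70.6, 51, 41.1 and 46.1 CPM in DMSO on days 1, 2, 3 and 5 and at 29, 33.3, 25.6 and 23.5 CPM with alectinib. The Mre11a values in EA2 were 95.3, 101.1, 102.4 and 85.6 CPM in DMSO and 55.3, 63, 58.4 and 73.9 CPM with alectinib. For EA3, Mre11a stood at 70.4, 46.6, 49.1 and 35.2 CPM in DMSO and 33.7, 34.2, 34 and 27 CPM with alectinib. No alectinib value reached a DMSO value of the same line, in any of the 3 lines. Mre11a had a fitted log2 fold change of -0.89 (SE 0.16, adjusted p = 0.00113) in EA1, -0.62 (SE 0.16, adjusted p = 0.0112) in EA2 and -0.61 (SE 0.16, adjusted p = 0.011) in EA3, with a mean over the lines of -0.71 (SE 0.09, adjusted p = 2.96e-05). For Mre11a, leaving out 1 day took the adjusted p above 0.05 in EA2 without day 2 (0.0649) or day 3 (0.0816) and in EA3 without day 1 (0.0893). The Mre11a calls in EA1 and for the mean effect passed with any single day left out. The partners of Mre11a in that complex did not pass: Rad50 had a mean effect of -0.10 (SE 0.09, adjusted p = 0.357) and Nbn of -0.03 (SE 0.13, adjusted p = 0.877), with 95% intervals of -0.30 to 0.09 and -0.31 to 0.25.

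Rbbp8 encodes CtIP, the cofactor that switches on Mre11a cutting. In EA1, Rbbp8 was at 55.9, 48.1, 53 and 36.9 CPM in DMSO on days 1, 2, 3 and 5 and at 30.9, 31.2, 27.7 and 23.4 CPM with alectinib. The Rbbp8 values in EA2 were 37.7, 40, 39.1 and 27.8 CPM in DMSO and 24.9, 26.5, 14.2 and 31.6 CPM with alectinib. For EA3, Rbbp8 stood at 37.9, 28.7, 30.5 and 33.3 CPM in DMSO and 24, 21.9, 20.6 and 18.7 CPM with alectinib. Treatments were apart in EA1 and EA3, and in EA2 the alectinib value of day 5 lay above the DMSO value of that day. Rbbp8 had a fitted log2 fold change of -0.77 (SE 0.20, adjusted p = 0.00925) in EA1, -0.61 (SE 0.20, adjusted p = 0.0416) in EA2 and -0.61 (SE 0.20, adjusted p = 0.0309) in EA3, with a mean over the lines of -0.66 (SE 0.12, adjusted p = 0.000309). For Rbbp8, leaving out 1 day took the adjusted p above 0.05 in EA1 without day 1 (0.0615), in EA2 without day 1 (0.129), day 2 (0.129) or day 3 (0.265) and in EA3 without day 1 (0.128), day 2 (0.0776) or day 5 (0.077). The log2 fold change in these fits ran from -0.85 to -0.70 in EA1 and from -0.71 to -0.51 in EA3. In EA2 it ran from -0.87 to -0.34, the last without day 3. The Rbbp8 call for the mean effect passed with any single day left out. Blm (chr7:80454733-80535119, minus strand) encodes the helicase that dissolves joined DNA molecules. In EA1, Blm was at 49.2, 27.7, 28.3 and 31.6 CPM in DMSO on days 1, 2, 3 and 5 and at 16.7, 20.5, 16.9 and 14.6 CPM with alectinib. The Blm values in EA2 were 21.8, 20, 25.6 and 28.1 CPM in DMSO and 9.84, 16.8, 7.98 and 20.1 CPM with alectinib. For EA3, Blm stood at 33.7, 18.8, 15.8 and 11.5 CPM in DMSO and 14.3, 9.66, 13.2 and 8.9 CPM with alectinib. The groups were apart in EA1, touched in EA2 and overlapped in EA3, with the alectinib library the lower on all 12 line-days. Blm had a fitted log2 fold change of -0.96 (SE 0.25, adjusted p = 0.00969) in EA1, -0.88 (SE 0.26, adjusted p = 0.0215) in EA2 and -0.72 (SE 0.26, adjusted p = 0.0458) in EA3, with a mean over the lines of -0.85 (SE 0.15, adjusted p = 0.000276). For Blm, leaving out 1 day took the adjusted p above 0.05 in EA1 without day 1 (0.0752), in EA2 without day 1 (0.0766) or day 3 (0.144) and in EA3 without day 1 (0.225), day 2 (0.141) or day 5 (0.084). The Blm call for the mean effect passed with any single day left out.

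Exo1, a nuclease for long resection, had a wide spread. In EA1, Exo1 was at 47.2, 24.9, 11.7 and 7.64 CPM in DMSO on days 1, 2, 3 and 5 and at 7.69, 11.8, 7.4 and 6.96 CPM with alectinib. The Exo1 values in EA2 were 51.7, 60.6, 25.2 and 37.7 CPM in DMSO and 24.7, 36.5, 6.32 and 37.9 CPM with alectinib. For EA3, Exo1 stood at 54.8, 20.9, 12.2 and 6.17 CPM in DMSO and 15.6, 15.1, 12.1 and 9.12 CPM with alectinib. The DMSO values fell severalfold over days in EA1 and EA3, and all groups overlapped. Exo1 had a fitted log2 fold change of -1.13 (SE 0.43, adjusted p = 0.0578) in EA1, -0.92 (SE 0.41, adjusted p = 0.125) in EA2 and -0.47 (SE 0.43, adjusted p = 0.423) in EA3, with a mean over the lines of -0.84 (SE 0.24, adjusted p = 0.011). For Exo1, leaving out 1 day took the adjusted p above 0.05 for the mean effect without day 1 (0.0751) or day 2 (0.0519). Hells, a chromatin remodeling helicase, was -1.19 (SE 0.32, adjusted p = 0.0109) in EA1 and -0.86 (SE 0.18, adjusted p = 0.00134) for the mean. For Hells, leaving out 1 day took the adjusted p above 0.05 in EA1 without day 3 (0.0538). The Hells call for the mean effect passed with any single day left out. Brip1, the helicase that binds Brca1, was -0.70 (SE 0.19, adjusted p = 0.00766) for the mean and passed in no line alone. For Brip1, leaving out 1 day took the adjusted p above 0.05 for the mean effect without day 1 (0.0662).

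Of the 5 checkpoint genes, Chek1, Chek2 and Topbp1 fell for the mean effect, where 24.6% of all genes fell, and the kinases Atm and Atr did not pass. Topbp1 encodes the activator of Atr. In EA1, Topbp1 was at 269.0, 160.5, 117.2 and 87.2 CPM in DMSO on days 1, 2, 3 and 5 and at 83.5, 102.3, 69.4 and 63.3 CPM with alectinib. The Topbp1 values in EA2 were 254.5, 253.2, 186.1 and 226.7 CPM in DMSO and 152.9, 156.0, 72.7 and 184.2 CPM with alectinib. For EA3, Topbp1 stood at 212.4, 106.8, 73.6 and 59.2 CPM in DMSO and 89.2, 87.1, 86.9 and 59 CPM with alectinib. Groups were apart in EA2 only, with the day 1 DMSO value the highest in every line. Topbp1 had a fitted log2 fold change of -0.89 (SE 0.25, adjusted p = 0.0146) in EA1, -0.77 (SE 0.25, adjusted p = 0.035) in EA2 and -0.33 (SE 0.25, adjusted p = 0.337) in EA3, with a mean over the lines of -0.66 (SE 0.14, adjusted p = 0.00161). For Topbp1, leaving out 1 day took the adjusted p above 0.05 in EA2 without day 2 (0.116) or day 3 (0.195). The Topbp1 calls in EA1 and for the mean effect passed with any single day left out. Chek1, the kinase downstream of Atr, was lower in EA1 and for the mean effect. In EA1, Chek1 was at 28.2, 21.5, 16.9 and 12.7 CPM in DMSO on days 1, 2, 3 and 5 and at 9.04, 12.8, 9.53 and 9.2 CPM with alectinib. The Chek1 values in EA2 were 23.5, 29.2, 22.5 and 22.4 CPM in DMSO and 21.3, 18.7, 7.76 and 20 CPM with alectinib. For EA3, Chek1 stood at 20.5, 15.9, 8.5 and 5.17 CPM in DMSO and 10.4, 8.78, 7.91 and 6.76 CPM with alectinib. EA2 did not overlap, EA1 met at 1 library, and the EA3 alectinib values sat inside the DMSO range. Chek1 had a fitted log2 fold change of -0.92 (SE 0.28, adjusted p = 0.0215) in EA1, -0.60 (SE 0.28, adjusted p = 0.132) in EA2 and -0.43 (SE 0.29, adjusted p = 0.275) in EA3, with a mean over the lines of -0.65 (SE 0.16, adjusted p = 0.00424). For Chek1, leaving out 1 day took the adjusted p above 0.05 in EA1 without day 1 (0.126) or day 2 (0.0591). The Chek1 call for the mean effect passed with any single day left out.

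Atm encodes the kinase that senses broken ends. In EA1, Atm was at 58.2, 22.1, 21.2 and 28.7 CPM in DMSO on days 1, 2, 3 and 5 and at 31.3, 35.5, 28.3 and 26.8 CPM with alectinib. The Atm values in EA2 were 47.5, 48.3, 32.1 and 51.3 CPM in DMSO and 43.4, 38.6, 47.8 and 51.5 CPM with alectinib. For EA3, Atm stood at 59.2, 14.9, 40.5 and 21.5 CPM in DMSO and 42.1, 50, 33.4 and 37.3 CPM with alectinib. No direction was shared: the alectinib library was the lower on 6 of 12 line-days, and the groups overlapped in every line. Atm had a fitted log2 fold change of 0.02 (SE 0.33, adjusted p = 0.973) in EA1, 0.03 (SE 0.32, adjusted p = 0.964) in EA2 and 0.42 (SE 0.34, adjusted p = 0.366) in EA3, with a mean over the lines of 0.16 (SE 0.19, adjusted p = 0.525). Atr was -0.19 (SE 0.12, adjusted p = 0.213) for the mean, and Chek2, the kinase downstream of Atm, was -0.69 (SE 0.20, adjusted p = 0.0243) in EA2 and -0.35 (SE 0.12, adjusted p = 0.0239) for the mean. For Chek2, leaving out 1 day took the adjusted p above 0.05 in EA2 without day 2 (0.0936), day 3 (0.133) or day 5 (0.0605) and for the mean effect without day 1 (0.146) or day 2 (0.0951). None of the 3 genes for structure-specific nucleases passed. Their mean effects were -0.52 (SE 0.24, adjusted p = 0.0923) for Eme1, -0.19 (SE 0.10, adjusted p = 0.138) for its partner Mus81 and 0.04 (SE 0.11, adjusted p = 0.792) for the scaffold Slx4.

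**Figure D2:**
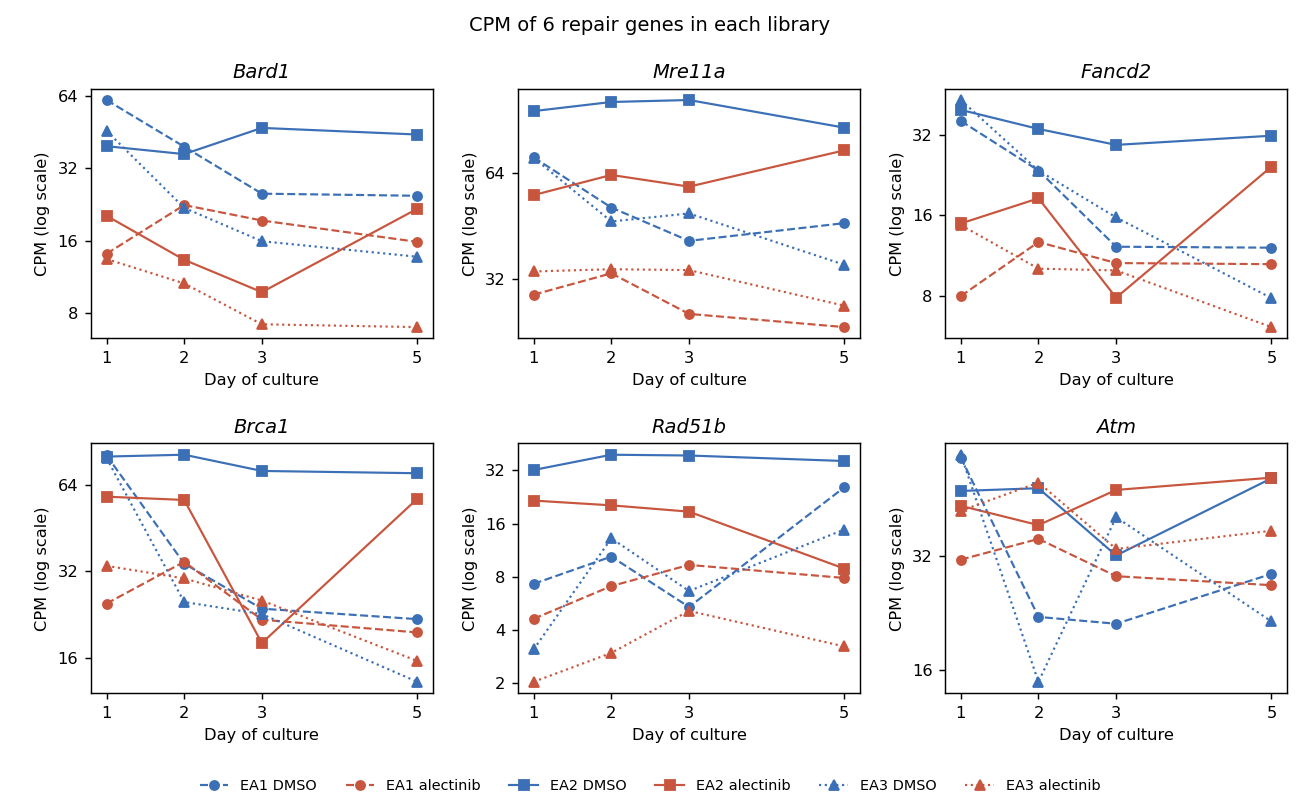
CPM (log scale, vertical axis, its range set for each gene) against day of culture for Bard1, Mre11a, Fancd2, Brca1, Rad51b and Atm, with 1 point per library, lines EA1 dashed, EA2 solid and EA3 dotted, and DMSO and alectinib in different colors. Bard1 in EA3 runs from 45.9 to 13.7 CPM in DMSO and from 13.4 to 6.97 CPM with alectinib.

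The plot of 6 genes by library shows Mre11a lower with alectinib on every day in each line, Brca1 with its widest gap on day 1 in EA1 and EA3, and the crossing lines of Atm.

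The alectinib response was largest on day 1 in EA1 and EA3 and on day 3 in EA2. The median daily log2 ratio of the 38 genes (alectinib over DMSO of the same day, with 2 counts added before the log) was -1.51, -0.45, -0.22 and -0.20 on days 1, 2, 3 and 5 in EA1. It was -0.54, -0.56, -0.99 and -0.09 in EA2. In EA3 it was -1.0, -0.45, 0.00 and 0.23. By role, the strand exchange genes stood at -1.62 in EA1 on day 1 and at 0.40 in EA3 on day 5, where 2 of 12 were below 0. Over the days, their medians ran from -1.62 to -0.19 in EA1, from -0.90 to -0.30 in EA2 and from -1.19 to 0.40 in EA3. Those of the core complex genes ran from -0.55 to 0.12 in EA1, from -0.62 to 0.12 in EA2 and from -0.67 to 0.60 in EA3, and the difference between the roles was not tested.

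**Figure D3:**
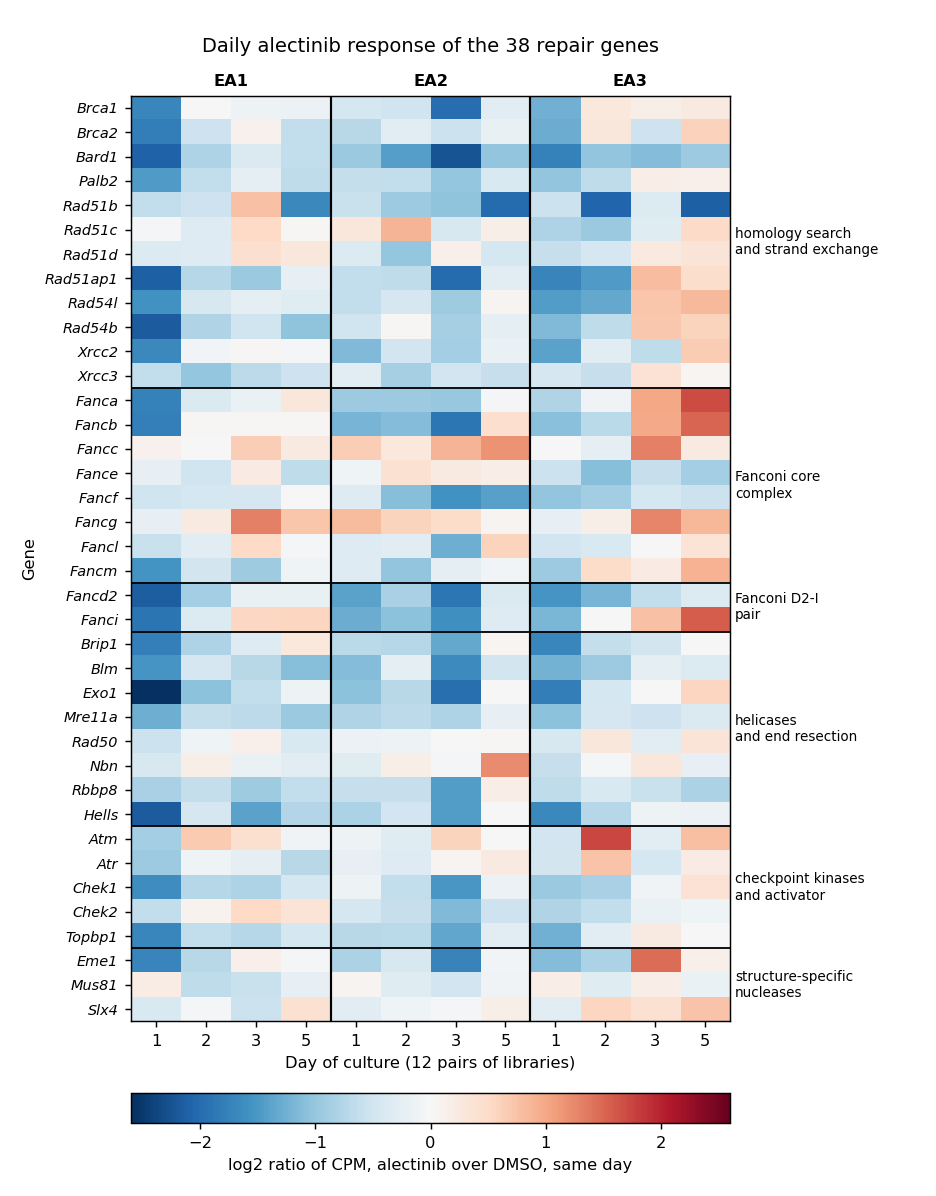
Log2 ratio of CPM, alectinib over DMSO of the same day, for each of the 38 genes (rows, grouped by role) in the 12 line-days (columns), as a color scale with 0 at its center. Day 1 of EA1 and EA3 and day 3 of EA2 are the columns with most negative values, with medians of -1.51, -1.0 and -0.99, and day 5 of EA3 has a median of 0.23.

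The grid of daily ratios shows that Bard1, Blm, Fancd2, Fancf and Mre11a kept a negative ratio in all 12 columns, and that Chek1, Hells, Rad51b, Rbbp8 and Topbp1 did so in 11. On single line-days, 46.6% to 51.4% of all genes had a negative ratio. The share of all genes negative on as many line-days is not given.

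The levels behind these ratios moved mainly in DMSO in EA1 and EA3 and with alectinib in EA2. The median CPM of the 38 genes in DMSO was 29.3, 22.5, 12.3 and 13.3 over the days for EA1. For EA2 it was 26.7, 29.1, 25.1 and 24, and for EA3 31.5, 15.9, 12.3 and 9.67. The EA1 and EA3 medians dropped after day 1 and that of EA2 stayed between 24 and 29.1. With alectinib the medians were 12.4, 13.5, 10.6 and 12.6 for EA1, 19.9, 17.9, 11.7 and 20.9 for EA2, and 14.5, 11.8, 12.6 and 10.3 for EA3. EA2 alectinib day 3 was thus the low point of EA2, and 25 of the 38 genes (65.8%) had their lowest EA2 alectinib value there, against 30% of all genes. Day 3 also held the lowest EA2 DMSO value of 19 of the 38 (50%), against 27.3% of all genes. The highest DMSO value fell on day 1 for 31 genes in EA1 (81.6%, against 26.8% of all genes), 12 in EA2 (31.6%, against 23.9%) and 32 in EA3 (84.2%, against 27.1%).

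**Figure D4:**
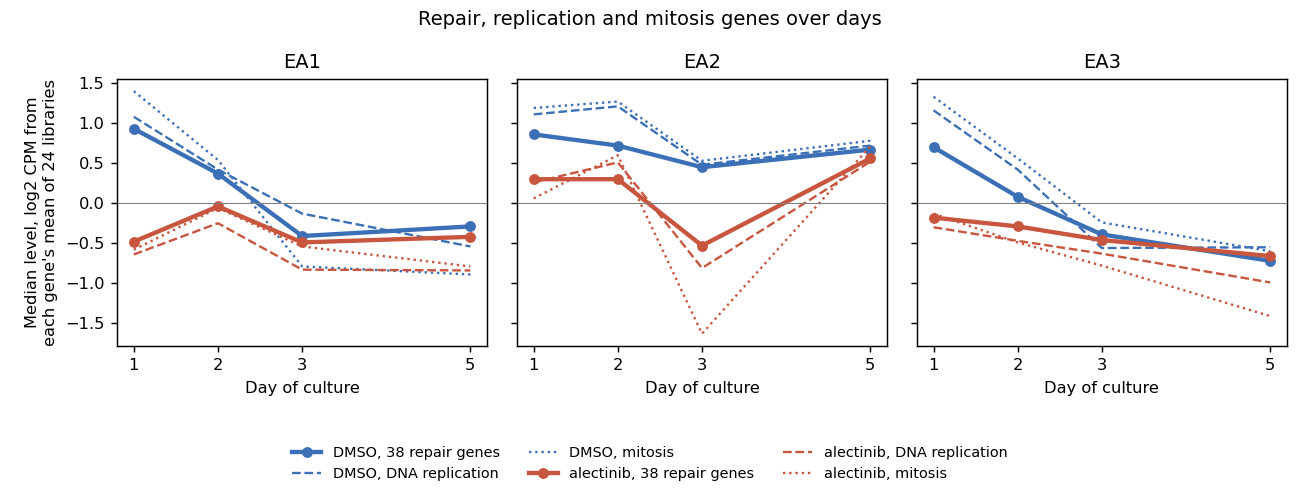
Median log2 CPM, relative to each gene's mean over the 24 libraries, against day of culture in EA1, EA2 and EA3, with DMSO and alectinib in different colors, for the 38 repair genes (solid), DNA replication genes (dashed) and mitosis genes (dotted). The DMSO curves fall after day 1 in EA1 and EA3, where the median CPM of the repair genes went from 29.3 to 13.3 and from 31.5 to 9.67. In EA2 it lay between 24 and 29.1.

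In the plot of medians over days, the DMSO curves of all 3 lists fell after day 1 in EA1 and EA3. Their median slopes in DMSO per doubling of days were -0.47 for the repair genes, -0.76 for the replication genes and -1.05 for the mitosis genes in EA1, and -0.64, -0.84 and -0.84 in EA3. With alectinib in EA3 they were -0.14, -0.28 and -0.53, and the differences between the lists were not tested. On a slope per doubling of days, averaged over the lines, 24 of the 38 genes fell in DMSO and 1 rose, against 11.7% and 10.6% of all genes, with a median slope of -0.39. The steepest were Fanca at -1.04 (SE 0.13, adjusted p = 0.000234), Fancb at -0.97 (SE 0.16, adjusted p = 0.00128) and Exo1 at -0.95 (SE 0.18, adjusted p = 0.00254), and Rad51b rose at 0.51 (SE 0.18, adjusted p = 0.0453). Slopes line by line and their comparison between lines were added after seeing the data. Taken by line, the slope in DMSO was past the threshold and negative for 6 genes in EA1, 0 in EA2 and 22 in EA3, against 1.93%, 0% and 5.75% of all genes. In EA3 the slope of Fanca was -1.61 (SE 0.24, adjusted p = 0.00224) and in EA1 -1.14 (SE 0.21, adjusted p = 0.0151). In EA2 it was -0.36, and none of the 38 had an unadjusted p under 0.05 there, against 448 of the 14264 genes tested. The edgeR test of whether the DMSO slope differed between lines called 0 of the 38 and 0% of all genes. At an unadjusted p under 0.05 were 14 of the 38 and 828 of the 14264 genes tested. Without day 1, the edgeR test of the mean slope in DMSO called 0 of the 38 and 0% of all genes, with 7 of the 38 at an unadjusted p under 0.05 and a median slope of -0.27. The share of all genes at that unadjusted p is not given for this fit. Without day 5 the same test called 12, against 5.75% of all genes, with a median slope of -0.54.

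With alectinib, the slope over days called 0 of the 38, against 0.505% of all genes, and the median slope was -0.06. At an unadjusted p under 0.05 in edgeR were 0 of the 38 and 1422 of the 14264 genes tested. The difference between the alectinib and DMSO slopes was past the threshold for 2 genes, Fanca at 0.79 (SE 0.18, adjusted p = 0.0492) and Fanci at 0.91 (SE 0.20, adjusted p = 0.0491), against 0.771% of all genes. Another 15 had an unadjusted p under 0.05, 17 in all, where 2447 of the 14264 genes tested did, and the median difference was 0.31. The count was 4 with a replicate block for line and day, 9 without the EA2 day 3 libraries and 11 without day 3, against 3.57%, 3.94% and 8.19% of all genes. It was 0 without day 1, day 2 or day 5, where edgeR called 0% of all genes and 2, 15 and 5 of the 38 had an unadjusted p under 0.05. The shares of all genes at that unadjusted p are not given for these fits.

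Whether lines differed in their response was tested directly. The edgeR F-test over the lines called 0 of the 38 genes, against 7.05% of all genes. Of the 14264 genes tested, 3602 had an unadjusted p under 0.05, and so did 1 of the 38. That gene was Fance, with an adjusted p of 0.054 in edgeR, and DESeq2 called it with an adjusted p of 0.0189, while over all alternatives its adjusted p ran from 0.0189 to 0.255. The alectinib effect on Fance in EA3 minus that in EA2 was -0.96 (SE 0.24, 95% interval -1.47 to -0.46, adjusted p = 0.0438), the 1 gene of the 38 past the threshold in a comparison of 2 lines, where 1.4% of all genes were lower. In either direction, 438 of the 14264 genes tested passed in that comparison, 924 for EA2 minus EA1 and 272 for EA3 minus EA1. Fance averaged 24.3 ± 4.74 CPM in DMSO and 27.4 ± 5.23 CPM with alectinib in EA2 (SD, n = 4). By the edgeR F-test over the lines, neither Fance nor the other genes past the threshold in 1 line only were shown to respond differently between lines.

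Without drug, more of the repair genes were higher than lower in EA2 against each of the other lines, over the 4 days together. On day 1 alone, the DMSO median was lowest in EA2, at 26.7 CPM against 29.3 in EA1 and 31.5 in EA3. Of the 38 genes, 14 were higher in EA2 than in EA1 and 1 was lower, against 20.3% and 19.9% of all genes, with a median log2 ratio of 0.63. Against EA2, EA3 had 21 lower and 0 higher, where 16.8% of all genes were lower and 18.9% higher, with a median of -0.75. Against EA1, EA3 had 3 lower (Blm, Rbbp8 and Atr) and 1 higher (Chek2), where 14.5% of all genes were lower and 16.6% higher, with a median of -0.29. The comparisons share their DMSO libraries. For EA3 against EA2, edgeR had 1 of the 38 higher at an unadjusted p under 0.05, Fance, and DESeq2 called it. Replication and mitosis genes moved with them: 23 of 47 and 22 of 28 were higher in EA2 than in EA1, and 26 of 47 and 13 of 28 were lower in EA3 than in EA2. Their part in the repair gene result was not tested.

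The widest gaps between EA2 and EA3 were those of Rad51b at -2.20 (SE 0.36, adjusted p = 0.000552), Rad54l at -2.18 (SE 0.37, adjusted p = 0.000703) and Fancb at -2.02 (SE 0.37, adjusted p = 0.00101), or 4.59-, 4.52- and 4.06-fold. Against EA1, the same genes were higher in EA2 by 1.85 (SE 0.36, adjusted p = 0.00149), 1.70 (SE 0.36, adjusted p = 0.00255) and 1.51 (SE 0.35, adjusted p = 0.00483). Brca1 was 2.78-fold lower in EA3 than in EA2, and Brca2 2.56-fold. Fancf went the other way, lower in EA2 than in EA1 at -1.02 (SE 0.27, adjusted p = 0.00913). On day 1, Brca1 stood at 80.9, 80.1 and 79.1 CPM in EA1, EA2 and EA3, and on day 5 at 21.8, 70.1 and 13.2 CPM. A fit without the day block called 4 higher in EA2 than EA1 and 5 lower in EA3 than EA2, where 29.3% and 25.9% of all genes passed in either direction, against 40.1% and 35.7% with the block. Without day 2, 3 or 5 the first count was 6, 8 and 7, where 29%, 37.4% and 28.4% of all genes passed. Without day 2 or 5 the other was 11 and 10, where 25.3% and 22.8% of all genes passed.

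**Figure D5:**
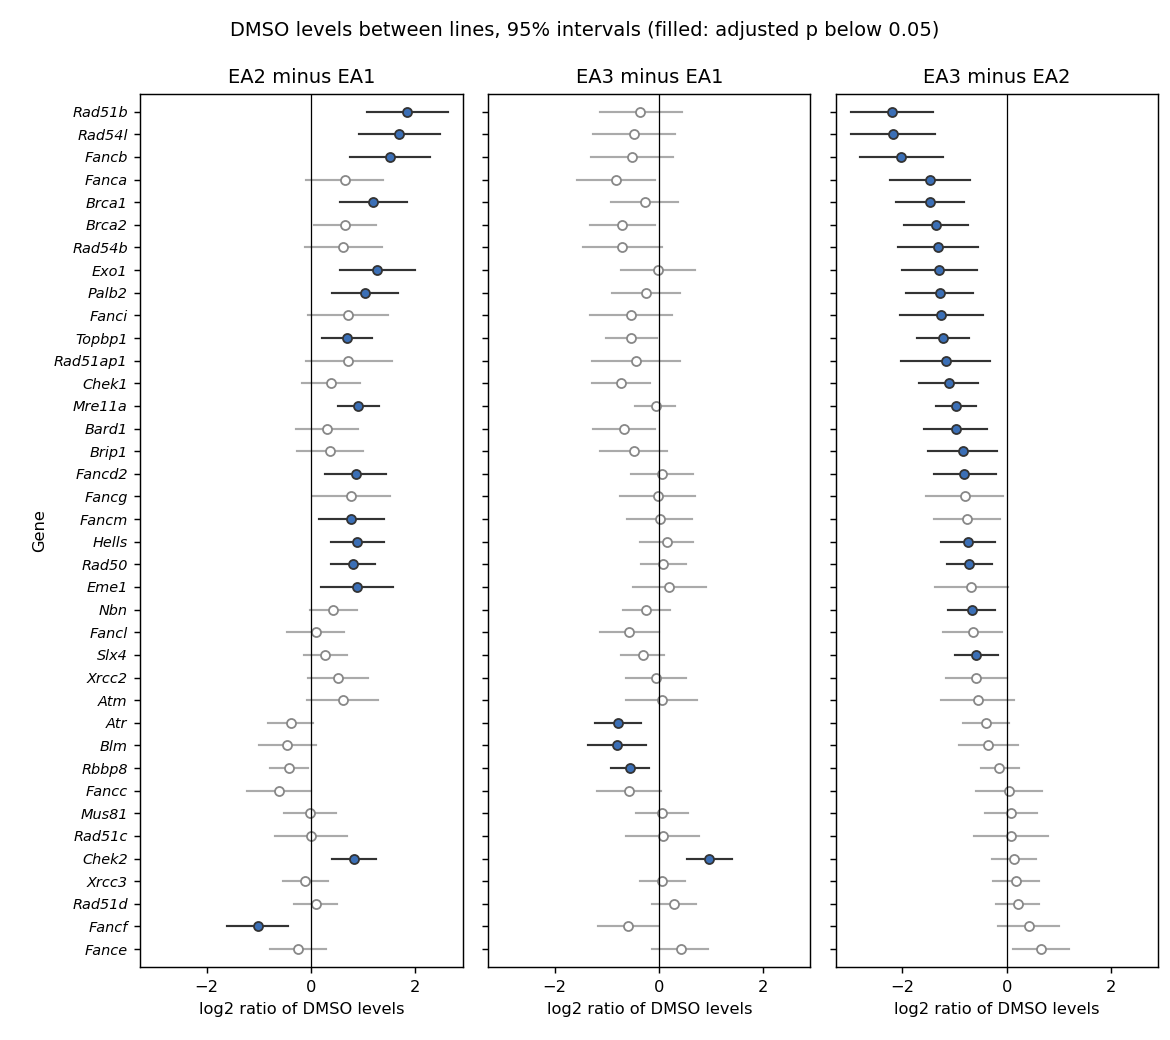
Log2 ratio of DMSO levels for the 38 genes (vertical axis, ordered by the ratio of EA3 to EA2) between EA2 and EA1, EA3 and EA1, and EA3 and EA2, with 95% confidence intervals as bars and filled points where the adjusted p was below 0.05. Rad51b, Rad54l and Fancb reach -2.20, -2.18 and -2.02 for EA3 against EA2.

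The plot of DMSO levels between lines shows 14 filled points right of 0 for EA2 against EA1 and 21 left of 0 for EA3 against EA2.

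Per kilobase of exon and pooled over the 3 lines, the mean DMSO level over the 12 libraries was highest for Topbp1 (14.9 CPM per kb), Rad50 (14.1), Hells (13.7), Mre11a (11.2) and Nbn (10.1). The order differed between lines: in EA3, Hells (12.5), Fance (12.4), Rad50 (11.9), Chek2 (10.2) and Topbp1 (10.1) stood above Mre11a (8.49) and Nbn (8.38). The pooled level was lowest for Fancc (0.94), Atr (1.22), Palb2 (1.26) and Rad51c (1.32). The length counts every annotated exon base of a gene, 23629 for Atr, so a long annotation lowers this level.

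Other genes of DNA repair gave context, set against 24.6% of all genes that fell and 25.4% that rose for the mean effect. Of 49 tested genes of related repair, 20 fell and 2 rose for the mean effect (median -0.31), among them Ube2t, the ubiquitin-conjugating enzyme of the Fanconi core complex, at -1.46. Rad18, a ligase of damage bypass, was at -1.12. Of 47 DNA replication genes, 38 fell and 0 rose (median -0.76), and of 28 mitosis genes 25 fell and 0 rose (median -0.82). No gene of either list was higher at an unadjusted p under 0.05 in edgeR, nor called higher by DESeq2. The end-joining genes, which seal breaks without a template, had 2 lower (Rif1 and Xrcc6) and 1 higher (Lig4) of 11, with a median of -0.04. Excision and mismatch repair had 16 lower and 3 higher of 33 (median -0.23), led by Ung at -1.73. The replication genes also had their lowest daily medians on day 1 in EA1 (-1.73) and EA3 (-1.45) and on day 3 in EA2 (-1.30), and the mitosis genes reached -2.02 in EA1 on day 1, -1.45 in EA3 on day 1 and -2.0 in EA2 on day 3. The part of cycling cells in the repair gene result was not tested.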

How the data were processed

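RNA was sequenced as paired reads of 151 bases from stranded mRNA libraries. The deposited table holds counts per gene, which the authors made with STAR on mm10, with FastQC and edgeR also named in the submitters' processing notes. The strand column and annotation release are not given in the sources used here. Columns were assigned to lines, treatments and days from the labels, and all were used. Of 55415 rows, 24 whose symbols had become date numbers (0.129 to 0.201% of counts) were left out, and 55391 gene rows remained, of which 55314 matched the GENCODE annotation and 77 did not. The library totals and the floor of 3 counts (0.256 to 0.519 CPM) set the precision, which covers counting error only.

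The counts were tested with edgeR 4.0.16 in R 4.3.3 (quasi-likelihood test, robust, TMM factors, expression filter by line and treatment), with 12 blocks of line and day, an alectinib effect per line, and Benjamini-Hochberg adjustment over 14264 genes at 0.05. Intervals are 95%. Slopes over log2 days, and DMSO lines with day as a block, used further fits of the same kind. Libraries were paired by line and day, as their labels give. The correlation of the deviations of the 2 libraries from their group means ranged from -0.3 to 0.549 over the 12 pairs. DESeq2 1.42.0, other scalings and filters, other blocks and each day left out were alternatives. The fits were tested on simulated data of 13700 genes: of 100 changes of 2-fold, the number recovered was 66 for EA1, 69 for EA2 and 66 for EA3, and of 100 of 4-fold it was 98, 98 and 99.

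The members and lists were chosen with earlier results of these data known. Values per library are given for 20 members: those past the threshold in 2 or more lines, those with a DMSO ratio between lines of at least 1 (log2), those whose effect differed between lines (none), and Brca1, Brca2, Fancd2, Rad51ap1, Chek1 and Atm. The others are given by group values. Of each comparison list at most 3 genes are named, those of smallest p. The 2 libraries labelled EA3 day 7 were used only in 1 alternative.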

Additional observations from a re-analysis of the deposited data

Results flagged for a closer look

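Among 120 groups of 4 libraries checked for the 20 genes with values per library, 6 held a library set apart from the other 3 by Dixon's criterion, and chance flags about 1 in 20 groups. Brca1 in EA2 with alectinib had its lowest value, 18 CPM, on day 3, where the other 3 days were between 56.6 and 58.1 CPM. Exo1 in EA1 with alectinib was highest on day 2, at 11.8 CPM, and Chek1 in the same library, at 12.8 CPM. Chek1 in EA2 in DMSO was highest on day 2, at 29.2 CPM. Mre11a and Topbp1 in EA3 with alectinib were lowest on day 5, at 27 and 59 CPM.

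The 2 libraries labelled EA3 day 7 entered only the alternative fit on all 26 libraries. Over 14264 genes, the DMSO library correlated with the mean of the EA2 DMSO libraries at 0.967 and with that of EA3 at 0.887 (Pearson's r across genes, which are not independent replicates), and the alectinib library at 0.986 and 0.876. The median log2 ratio of the 38 genes between these libraries was 0.08, with 17 below and 21 above 0.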

How the results depend on the processing

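Over the alternatives, the effects of the 20 genes with values per library gave 872 results with the same sign and side of the threshold, 35 that passed it, 84 that lost it and 25 that changed sign, none of which was past the threshold before or after. With 1 day left out, the log2 fold change in EA3 ranged from -0.32 to 0.26 for Brca1, -0.50 to 0.14 for Brca2, -0.82 to 0.05 for Rad54l, -0.47 to 0.21 for Rad54b, -0.31 to 0.57 for Fancb, -0.14 to 0.79 for Fanci, -0.75 to 0.03 for Exo1, -0.51 to 0.01 for Topbp1 and -0.03 to 0.78 for Atm. In EA1 it ranged from -0.64 to 0.07 for Fancb, -0.59 to 0.29 for Fanci and -0.23 to 0.37 for Atm, in EA2 from -0.16 to 0.14 for Atm, and for the mean from -0.57 to 0.05 for Fanca, -0.69 to 0.03 for Fanci and -0.04 to 0.41 for Atm. With no replicate block, Fanca, Fancb and Fanci in EA3 were at -0.09, -0.37 and -0.25 and Atm in EA1 at -0.10. Atm was at -0.02 in EA1 with all 26 libraries, -0.02 in EA2 under library size alone and -0.16 in EA2 without the EA2 day 3 libraries. With 1 day left out, the counts of genes lower with alectinib ranged from 3 to 12 in EA1 (10 with all days), 1 to 8 in EA2 (9), 3 to 6 in EA3 (8) and 11 to 23 for the mean (20). Of all genes, 19.5% to 28.2% passed in either direction in EA1 (33.8% with all days) and 14.9% to 18.6% in EA2 (24.3%). The shares were 19.6% to 27.1% in EA3 (32.3%) and 41.2% to 44.1% for the mean (50%). Without day 5, where EA1 had 12 and the mean 23, they were 25.5% and 44.1%. Counts of genes higher ranged from 0 to 0 in EA2 (1), 0 to 1 in EA3 (0) and 0 to 2 for the mean (2). The median of EA3 ranged from -0.46 to 0.01, and without day 1 it reversed to 0.01. Those falling over days in DMSO ranged from 0 to 26 (24), the slope differences from 0 to 11 (2) and the DMSO slopes that differ between lines from 0 to 1 (0). Of all genes, 0% to 27.5% passed for the DMSO slope (22.3% with all days) and 0% to 8.19% for the slope difference (0.771%). Between DMSO lines, the ranges were 6 to 16 higher and 0 to 2 lower for EA2 against EA1 (14 and 1), 1 to 4 lower for EA3 against EA1 (3), and 0 to 1 higher and 10 to 24 lower for EA3 against EA2 (0 and 21). Of all genes, 28.4% to 37.4% passed for EA2 against EA1 (40.1% with all days). For EA3 against EA2, 22.8% to 35.1% did (35.7%).

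With no filter on low counts, 15 genes were lower in EA2, of which 8 were among the 9 of the reported fit. Of all genes, 3682 of 33394 passed there (11%), against 3464 of 14264 (24.3%) in the reported fit. Without the EA2 day 3 libraries, an alternative chosen after seeing the data, 2 were lower. Fancc was the 1 gene higher in EA2, and 0 were higher there under library size alone, no filter, no replicate block, all 26 libraries and without the EA2 day 3 libraries. In EA3, library size alone left 4 lower and each line fitted alone left 5, where 33.1% and 23.8% of all genes passed, against 32.3%. For the mean, 1 was higher with no filter, with no replicate block and without the EA2 day 3 libraries. The effect differed between lines for 1 gene under DESeq2 and 1 with no filter. With no replicate block by line and day, 5 genes were lower in EA2, 4 were higher in DMSO in EA2 than in EA1 and 5 were lower in EA3 than in EA2. The slope difference passed for 0 genes on linear days, 4 with a replicate block and 9 without the EA2 day 3 libraries. For EA3 against EA2 in DMSO, DESeq2 called 1 higher. The cause of these shifts was not tested. Library size alone moved the median of all genes to 0.16 in EA1 and 0.18 in EA3.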
